A study of Mus musculus with 2 samples.

Results

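The 10 genes described here encode cytokines and receptors of the interleukin-1 (IL-1), interleukin-6 (IL-6) and interleukin-10 (IL-10) families, measured in single cells of a mouse glioblastoma. They were taken by symbol from the 19059 genes of the count matrices, and all 10 were present. The ligands were Il1a, Il1b, Il6, Osm (oncostatin M), Lif (leukemia inhibitory factor) and Il10. Il1rn encodes the IL-1 receptor antagonist, and Il1r1, Il6ra and Osmr encode receptor chains. Tumors were grown in the brain from mGSC, a mouse glioblastoma stem cell line labelled Trp53+/- and Nf1+/-. Host mice were female C57BL/6 animals of 6 to 8 weeks. They received vehicle or Xevinapant, a SMAC mimetic that antagonizes inhibitor of apoptosis proteins, at 50 mg/kg each day, and tumors were taken on day 7. Both groups carried the same line, so no sample was free of tumor and no second line was measured. The labels describe 1 pooled library for each treatment, and each pool was deposited as 4 matrices, stated to be 4 mice per group.

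IL-1α and IL-1β act through the receptor encoded by Il1r1 together with the shared chain encoded by Il1rap, which leads to NF-κB and MAP kinase signalling. The antagonist encoded by Il1rn occupies the same receptor without signalling, and the chain encoded by Il1r2 acts as a decoy. IL-6, oncostatin M and LIF all signal through gp130, encoded by Il6st, with a partner chain that sets which cells respond (Il6ra, Osmr or Lifr), and activate STAT3. IL-10 acts through Il10ra and Il10rb and is known for restraining macrophage cytokine production.

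Because these genes are known for inducible transcription, promoter sequence is shown for the pair of neighbouring IL-1 genes and for the gp130 cytokines found in stromal and tumor cells. Sequences are from RefSeq (GRCm38.p6), written 5′ to 3′ on the gene's strand from 250 bases before to 50 bases after the annotated start. Capitals mark matches on either strand to a kappaB motif, to a STAT motif (TTCNNNGAA), to a C/EBP motif (TTGCNNAA) or to an AP-1 motif (TGANTCA). Il1a lies on chromosome 2 at 129299610 to 129309972 and Il1b at 129364570 to 129371139, both on the minus strand, with 54597 bases between them. The Il1a window is chr2:129309923-129310222 and the Il1b window chr2:129371090-129371389, both minus. The Il6 window is chr5:30012864-30013163 and the Lif window chr11:4257318-4257617, both plus.
Il1a: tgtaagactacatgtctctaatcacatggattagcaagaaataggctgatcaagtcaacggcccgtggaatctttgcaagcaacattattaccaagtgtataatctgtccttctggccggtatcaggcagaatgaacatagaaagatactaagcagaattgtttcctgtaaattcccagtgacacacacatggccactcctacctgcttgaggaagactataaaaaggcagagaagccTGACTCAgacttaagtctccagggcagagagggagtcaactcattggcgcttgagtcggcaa
Il1b: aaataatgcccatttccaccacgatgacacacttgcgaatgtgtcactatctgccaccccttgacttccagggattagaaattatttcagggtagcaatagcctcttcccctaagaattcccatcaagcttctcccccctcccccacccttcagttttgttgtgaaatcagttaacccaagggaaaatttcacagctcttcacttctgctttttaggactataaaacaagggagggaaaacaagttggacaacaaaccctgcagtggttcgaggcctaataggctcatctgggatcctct
Il6: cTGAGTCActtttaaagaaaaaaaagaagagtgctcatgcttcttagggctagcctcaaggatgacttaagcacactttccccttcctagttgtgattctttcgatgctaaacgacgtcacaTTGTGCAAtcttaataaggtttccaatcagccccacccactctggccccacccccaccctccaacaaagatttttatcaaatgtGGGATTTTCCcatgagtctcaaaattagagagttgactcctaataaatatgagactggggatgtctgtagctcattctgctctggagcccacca
Lif: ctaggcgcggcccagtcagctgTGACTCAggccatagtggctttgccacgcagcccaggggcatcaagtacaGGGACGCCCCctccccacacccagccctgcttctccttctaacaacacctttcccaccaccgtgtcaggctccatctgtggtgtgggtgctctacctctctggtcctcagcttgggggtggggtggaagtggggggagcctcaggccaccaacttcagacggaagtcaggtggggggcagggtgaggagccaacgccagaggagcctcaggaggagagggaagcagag

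The Il6 window held a kappaB, a C/EBP and an AP-1 match, and the Lif window a kappaB and an AP-1 match. The Il1a window held an AP-1 match alone, and none of the 4 motifs was found in the Il1b window. Over all 32851 promoter windows of the same length, 8.46% held the kappaB motif, 8.30% the STAT motif, 10.8% the C/EBP motif and 7.81% the AP-1 motif. These matches are a description of letters only. The Osm gene lies 16530 bases from Lif on chromosome 11, at 4236420 to 4241026.

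After filtering, 50060 of 56943 barcodes were kept. The 8 matrices held 71835789 to 300206053 UMIs (unique molecular identifiers, each standing for 1 captured molecule). Vehicle matrices 1 and 3, Xevinapant matrices 1 and 2, and Xevinapant matrices 3 and 4 had near-identical cell makeup: their class counts gave a chi-square of 1.01 to 1.98 for each degree of freedom, against 6.50 to 33.9 in the other pairs within a group. In expression the joined pairs still differed by more than sampling noise, at 3.85 to 20.4 for each degree of freedom in tumor cells and 2.21 to 3.45 in macrophages. The other pairs within a group were at 95.2 to 252 in tumor cells and 3.43 to 10.2 in macrophages, where the ranges overlapped. Each such pair was counted as 1 sample, which left 3 vehicle and 2 Xevinapant samples. A two-sided exact permutation test over them, which doubles the smaller tail, cannot go below p = 0.2. The labels give the vehicle and Xevinapant pools different batch dates and different RNA types, so treatment, pool and batch cannot be told apart. The pools shared 1413 barcodes, and 1121 of these were removed because they held under 2% of the UMIs of the same barcode in the other pool.

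Cells were placed in classes by marker genes. There were 40893 tumor cells, 1565 macrophages, 624 fibroblasts, 439 monocytes, 291 neutrophils, 276 endothelial cells, 272 microglia-gated cells, 116 T cells and 55 pericytes, besides dendritic cells, NK cells and B cells in smaller numbers. The tumor gate needed 4 of 12 tumor markers. None of the 12 was over 1.5 times its level in all cells, because most cells were tumor cells. Levels are given as CPM, the UMIs of a gene scaled to the same total of UMIs in every class and sample. The microglia gate rested on 7 measured markers, and summed macrophage markers there were at 1473 to 2368 CPM beside 1211 to 1648 CPM of microglia markers. Of the 55 pericytes, 28 also held enough tumor markers for the tumor gate, as did 239 of the 624 fibroblasts. The part of RNA from other cells in the stromal levels was not tested. The assay used gene-specific probes, so levels are compared between classes and samples and not between genes.

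Il1b had its highest CPM in neutrophils. CPM is a share of a class's UMIs, and neutrophils were shallow. Their median was 1466 UMIs a cell, against 5592 in monocytes, 6328 in macrophages and 7685 in microglia-gated cells. In every vehicle sample macrophages held a larger share of all Il1b UMIs than neutrophils, as given below. In the 3 samples with at least 10 neutrophils the Il1b level was 1988 CPM in vehicle 1 and 3, 2089 CPM in Xevinapant 1 and 2 and 2601 CPM in Xevinapant 3 and 4. Monocytes followed at 257 ± 152 CPM (SD, n = 4), and their range did not overlap that of neutrophils. Microglia-gated cells (65.9 ± 43.6 CPM, n = 5) and macrophages (64.6 ± 36.4 CPM, n = 5) did not differ beyond their spread. Tumor cells held 0.719 ± 0.336 CPM (n = 5).

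Il1rn had the same leading class, at 2517 ± 949 CPM (n = 3) in neutrophils. Its next class was macrophages at 181 ± 54.7 CPM (n = 5), whose range overlapped that of monocytes at 135 ± 113 CPM (n = 4). Il1a was spread over 3 classes that did not differ beyond their spread, with 145 ± 44.8 CPM in neutrophils, 86.8 ± 34.8 CPM in microglia-gated cells and 78.6 ± 26.1 CPM in macrophages. Monocytes, second for Il1b, held 12.7 CPM of Il1a over their pooled cells. The 291 neutrophils held 58 Il1a UMIs, the 272 microglia-gated cells 235 and the 1565 macrophages 903. Il1a UMIs per cell were thus lower in the shallow neutrophils than in the other 2 of these classes.

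Osm acts on stromal cells through Osmr and also had its highest CPM in neutrophils, at 244 ± 106 CPM (n = 3). Macrophages were at 40.8 ± 8.60 CPM (n = 5) and monocytes at 38.2 ± 23.0 CPM (n = 4). Neutrophils were shallow, as given above, and their Osm UMIs per cell were not higher than those of macrophages. The 291 neutrophils held 92 Osm UMIs, the 1565 macrophages 502 and the 439 monocytes 135. In cells thinned to the same depth, Osm was found in 21.4%, 7.28% and 12.2% of neutrophils in those 3 samples. In macrophages of the same samples it was found in 3.97%, 3.17% and 3.97%. Il10 was sparse, with 29 UMIs in monocytes (8.83 ± 4.57 CPM) and 91 UMIs in macrophages (5.40 ± 2.42 CPM). Il6 was seen in 84 UMIs from fibroblasts (5.72 ± 6.56 CPM, n = 5), and its spread in pericytes (27.1 ± 37.1 CPM, n = 4) was larger than its mean. Lif was highest in fibroblasts at 47.0 ± 18.4 CPM (n = 5), and in tumor cells was at 7.06 ± 4.72 CPM (n = 5).

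Il1r1 and Osmr were highest in stromal cells, whose gates let in cells with tumor markers, as given above. Il1r1 was at 123 ± 70.6 CPM in pericytes (n = 4) and 110 ± 59.0 CPM in fibroblasts (n = 5), ranges that overlapped, and at 24.5 ± 19.8 CPM in endothelial cells. Osmr had the same order, with 134 ± 54.0 CPM in pericytes, 132 ± 46.3 CPM in fibroblasts and 44.4 ± 15.2 CPM in endothelial cells, the last not overlapping fibroblasts. Il6ra, the ligand-binding chain for IL-6, was highest in neutrophils (196 ± 60.8 CPM, n = 3) and monocytes (161 ± 22.4 CPM, n = 4), whose ranges overlapped. It was at 14.5 ± 2.08 CPM in fibroblasts and 8.66 ± 1.58 CPM in tumor cells. The 291 neutrophils held 90 Il6ra UMIs and the 439 monocytes 484, so UMIs per cell were lower in the shallower neutrophils.

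**Figure D1:**
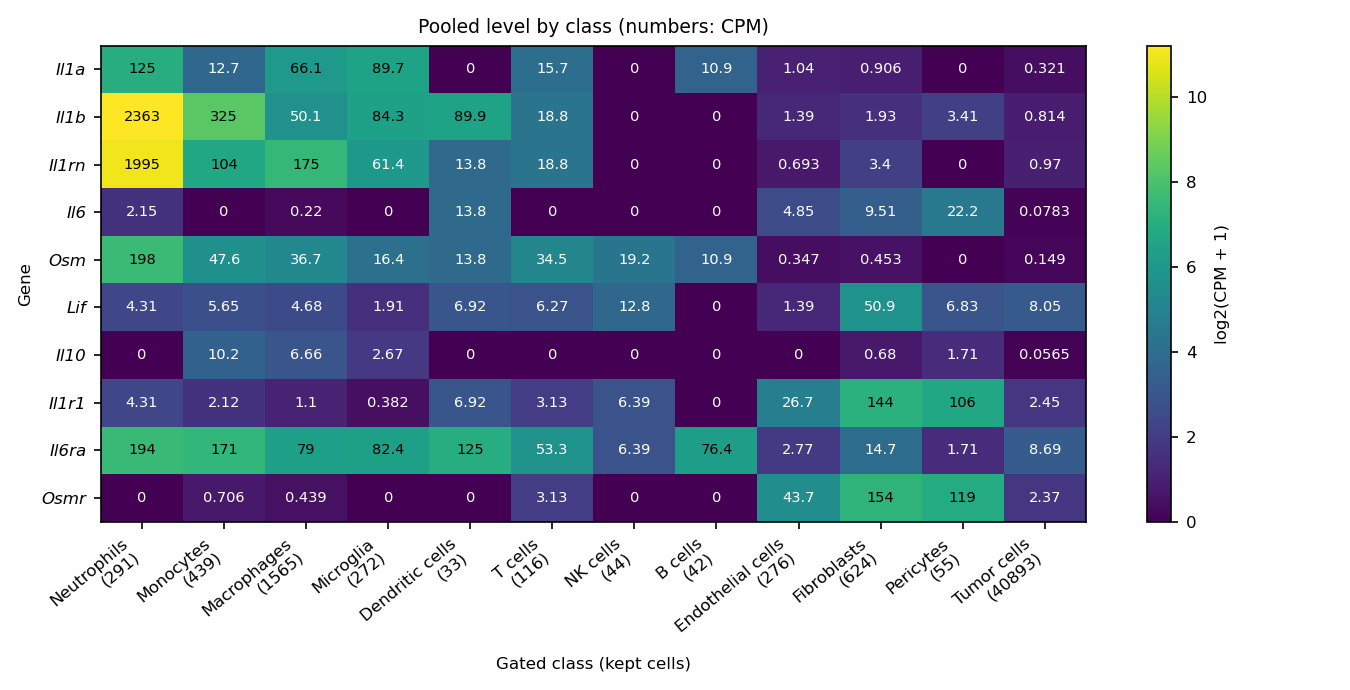
Pooled level of each of the 10 genes (rows) in each gated class (columns, with the number of kept cells), colored by log2(CPM + 1) with the CPM printed in each cell. Il1b, Il1rn and Osm are highest in neutrophils, while Il1r1 and Osmr are highest in fibroblasts and pericytes.

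The shared chains were more widely distributed. Il6st, encoding gp130, ranged from 178 to 353 CPM in fibroblasts and from 97.7 to 130 CPM in tumor cells over the 5 samples. Lifr, the LIF receptor, was at 63.1 to 96.9 CPM in tumor cells, and Il1rap at 76.2 to 95.4 CPM. The decoy receptor gene Il1r2 ranged from 1259 to 1815 CPM in neutrophils over the 3 samples with at least 10 of them. Il10ra was at 141 to 294 CPM and Il10rb at 332 to 486 CPM in macrophages, against at most 1.34 CPM of Il10ra in tumor cells.

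Among fibroblasts, Osmr was detected in 79.5% of the cells with Il1r1 and in 34.8% of those without. The cells with Il1r1 were deeper, with a median of 14042.5 UMIs against 4415, and the part of depth in that difference was not tested. In neutrophils Il1rn was found in 57.9% of cells with Il1b and 57.0% of cells without it, at median depths of 1498.5 and 1402 UMIs. In macrophages the corresponding shares were 46.8% and 26.2%, at 8584 and 6033 UMIs. Cells of a sample are not replicates, and these shares carry no test.

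Over the 12 classes, the genes whose levels were most like each member were found by Pearson correlation of log2(CPM + 1), as a description across classes that share libraries. Levels were means of samples, or pooled cells in classes where too few samples had at least 10 cells. The 9318 genes compared had at least 50 CPM in a class and were neither markers nor members. The closest to Il1b were Pilrb2 (r = 0.958) and Plekhm2 (r = 0.957). Pilrb2 also led for Il1rn (r = 0.973), followed by Cd300ld (r = 0.966). Il1a was closest to Fth1, the ferritin heavy chain (r = 0.921), and Cd14 (r = 0.910), and Osm to Plek (r = 0.961). Osmr was closest to Mxra7 (r = 0.987) and Cd248 (r = 0.977), Il1r1 to Serping1 (r = 0.965) and Col8a1 (r = 0.938), and Lif to Mdk (r = 0.871) and Sfrp1 (r = 0.820). Il6ra was closest to Ebi3 (r = 0.946), Il10 to Serpinb8 (r = 0.884) and Il6 to Synpo2 (r = 0.920).

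The treatment comparison was first made over all kept cells, which mixes the makeup of the tumor with the level in each class. Il1b was at 2.91, 1.33 and 3.85 CPM in the vehicle samples and at 12.3 and 4.97 CPM in the Xevinapant samples. Il6 was at 0.108, 0.0855 and 0.106 CPM in vehicle and 0.714 and 0.264 CPM in Xevinapant. Osmr was at 3.11, 1.69 and 2.80 CPM in vehicle and 10.3 and 4.61 CPM in Xevinapant. For all 3 genes both Xevinapant samples lay above all vehicle samples.

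In all, 8 of the 10 genes had every Xevinapant sample above every vehicle sample, against 23.8% of all genes tested. The other two were Il1a and Il6ra. The median log2 fold change of the 10 genes was 1.43, against 0.01 over all genes. By edgeR no member passed an adjusted p of 0.05, and 0% of all genes did. The lowest adjusted p of the 10 in edgeR was 0.243, and 8 had an unadjusted p under 0.05, against 16.7% of all genes. DESeq2 called 5 (Il1rn, Il6, Lif, Osm and Osmr), against 5.22% of the genes it gave an adjusted p. With each of the 8 matrices counted as a mouse, edgeR called 4 (Il6, Lif, Osm and Osmr), against 10.4% of all genes. In whole-tumor values, more cells of a class and more RNA per cell cannot be told apart.

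Classes that held these genes differed in their share of cells. Neutrophils were 0.414%, 0.106% and 0.0720% of kept cells in the vehicle samples and 2.07% and 0.473% in the Xevinapant samples. Monocytes were 0.476%, 0.0910% and 0.536% in vehicle and 2.09% and 1.06% in Xevinapant. For both classes the groups did not overlap, though the lower Xevinapant neutrophil share lay close to the highest vehicle share. The exact two-sided permutation p was 0.2, the smallest value this test can give with these samples. Fibroblasts averaged 0.708% ± 0.269 (SD, n = 3) in vehicle and 2.16% ± 1.75 (n = 2) in Xevinapant, with overlapping samples (exact permutation p = 0.4). Macrophages averaged 2.08% ± 0.707 and 5.07% ± 3.34 (exact permutation p = 0.4).

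For Il1b, the classes that held its UMIs differed between the groups. Of the Il1b UMIs, neutrophils held 21.4%, 22.9% and 9.52% in the vehicle samples and 38.6% and 26.6% in the Xevinapant samples. Monocytes held 6.61%, 0.714% and 7.77% in vehicle and 38.3% and 21.1% in Xevinapant. Macrophages held 27.2%, 45.7% and 24.3% in vehicle and 9.58% and 14.1% in Xevinapant. For each of the 3 classes, the shares of Il1b UMIs in the Xevinapant samples did not overlap those in the vehicle samples. Of the UMIs of all genes, neutrophils held 0.0313%, 0.00773% and 0.00629% in vehicle and 0.227% and 0.0508% in Xevinapant. Monocytes held 0.174%, 0.0301% and 0.156% against 1.01% and 0.403%, so these all-gene shares did not overlap either. Macrophages held 1.40%, 0.919% and 0.758% against 4.92% and 1.32%, which overlapped. The shares in a sample add up to the whole, so larger shares in some classes lower the others. The monocyte share of Il1b UMIs in vehicle 2 rests on 1 UMI from 6 cells.

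For Il1rn, Il1a and Lif the class with the largest share of UMIs was alike in both groups. Macrophages held 44.9% of Il1rn UMIs in the pooled vehicle samples and 45.3% in the pooled Xevinapant samples, and 53.6% and 55.5% of Il1a UMIs. Tumor cells held 83.5% of Lif UMIs in vehicle and 88.7% in Xevinapant. Of the UMIs of all genes, tumor cells held 95.7%, 96.8% and 96.6% in the vehicle samples. In the Xevinapant samples they held 87.6% and 94.98%. In every sample their share of Lif UMIs was below their share of all UMIs. The same held for their share of Il6 UMIs. Of the 45 Il6 UMIs in pooled vehicle samples, tumor cells held 46.7% and fibroblasts 17.8%, whereas of the 154 in pooled Xevinapant samples fibroblasts held 49.4% and tumor cells 26.0%. The samples differed: the fibroblast share of Il6 was 0%, 11.1% and 31.8% in vehicle and 75.3% and 17.4% in Xevinapant, with tumor cells ahead of fibroblasts in Xevinapant 3 and 4 at 40.6%. The groups overlapped, and the order in the pooled Xevinapant samples rests on Xevinapant 1 and 2. The Il1r1 share in fibroblasts depended on the sample, at 14.0%, 12.9% and 26.3% in vehicle and at 65.8% and 21.2% in Xevinapant, so that the groups overlapped.

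**Figure D2:**
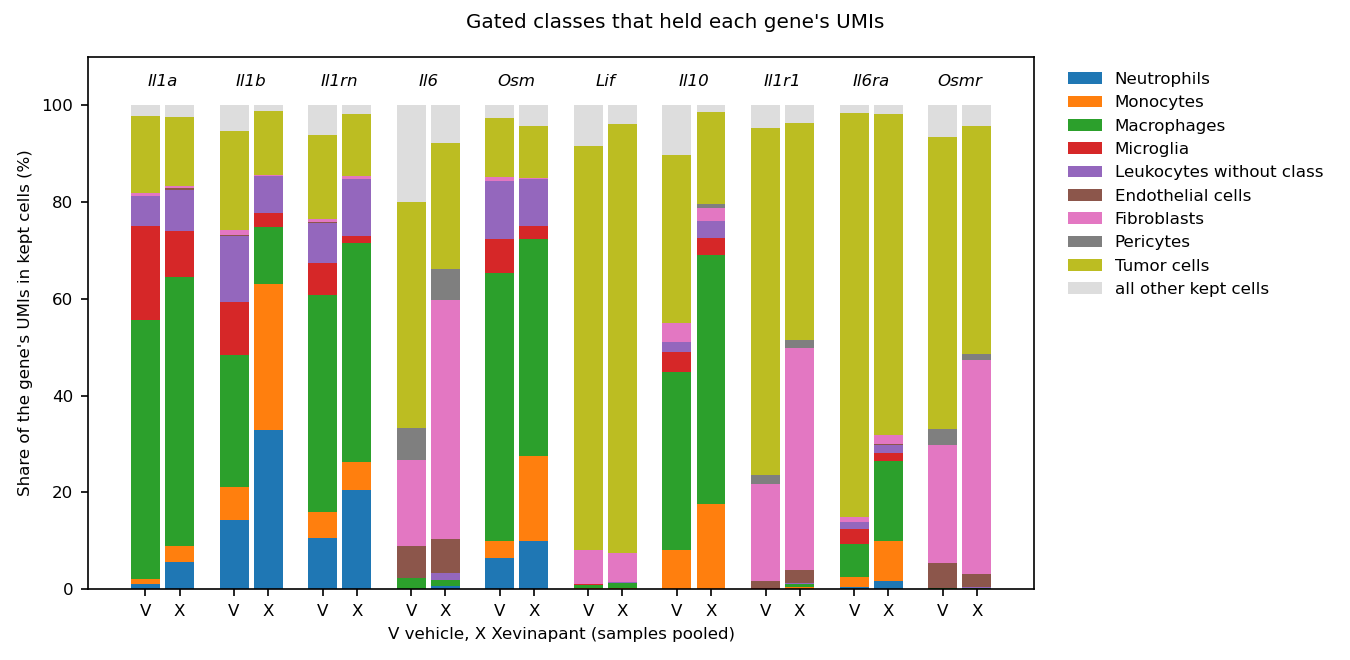
Stacked bars of the share (%) of each gene's UMIs in kept cells held by each gated class, with vehicle samples pooled (V) beside Xevinapant samples pooled (X). For Il1b, the neutrophil share is 14.4% in vehicle and 33.0% in Xevinapant, and the monocyte share 6.69% and 30.2%. Of the UMIs of all genes, both classes also held a larger share in each Xevinapant sample than in any vehicle sample.

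Within monocytes, Il1b was at 111 and 191 CPM in the 2 vehicle samples with at least 10 monocytes and at 466 and 260 CPM in the Xevinapant samples. Both Xevinapant samples lay above both vehicle samples. The edgeR log2 fold change was 1.33 ± 0.35 (SE), with an adjusted p of 0.176. In these samples 25% and 28.4% of vehicle monocytes and 28.6% and 29.1% of Xevinapant monocytes had an Il1b UMI, at median depths of 4355 UMIs over all vehicle monocytes and 6015 over all Xevinapant monocytes. Thinned to 1000 UMIs a cell, which left out 5 and 6 shallower cells, the shares were 10.6% and 12.7% in vehicle and 16.4% and 14.4% in Xevinapant. Cells with any held 2.50 and 3.26 Il1b UMIs on average in vehicle against 11.2 and 6.23 in Xevinapant, values that also depend on depth.

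Osm in monocytes was at 26.6 and 15.4 CPM in vehicle and 42.5 and 68.4 CPM in Xevinapant, without overlap. Its edgeR log2 fold change was 1.53 ± 0.45 (SE), with an adjusted p of 0.219. Il1rn was at 301 and 52.4 CPM in vehicle and 84.2 and 103 CPM in Xevinapant, where the 2 vehicle samples enclosed both others. Of the 4 members tested in monocytes edgeR called 0, against 0.216% of all genes, while 2 (Il1b and Osm) had an unadjusted p under 0.05, as did 12.9% of all genes. DESeq2 called Il1b, against 2.80% of the genes it gave an adjusted p, and gave none for Osm. Every Xevinapant sample was higher for 3 of the 4, against 18.1% of all genes. Macrophage markers summed to 2474 and 1618 CPM in the vehicle monocytes and 6627 and 3109 CPM in the Xevinapant monocytes, and neutrophil markers to 208 and 493 CPM against 442 and 367 CPM. Monocyte markers summed to 4841 and 6096 CPM against 7040 and 7124 CPM, tumor markers to 739 and 1057 CPM against 346 and 488 CPM, and microglia markers to 438 and 641 CPM against 183 and 356 CPM. All of these but the neutrophil markers did not overlap between the groups, and their part in the differences was not tested.

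In macrophages both IL-1 ligands were lower in value in the Xevinapant samples. Il1a was at 113, 86.8 and 83.3 CPM in vehicle and 42.7 and 67.0 CPM in Xevinapant, and Il1b at 56.4, 66.1 and 123 CPM in vehicle and 23.9 and 53.1 CPM in Xevinapant. For both genes the Xevinapant samples lay below all vehicle samples, Il1b only narrowly in one. The edgeR log2 fold change was -0.78 ± 0.21 (SE) for Il1a (adjusted p = 0.226) and -1.11 ± 0.37 (SE) for Il1b (adjusted p = 0.269). The Il1b changes in monocytes and macrophages differed by 2.47 on the log2 scale, which did not pass adjustment (edgeR interaction without a sample term, adjusted p = 0.611). The share of macrophages with an Il1a UMI was 31.6%, 38.3% and 28.0% in vehicle and 17.2% and 26.8% in Xevinapant.

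Il1rn and Osm overlapped between groups in macrophages. Il1rn was at 138, 257 and 134 CPM in vehicle and 157 and 220 CPM in Xevinapant. The ratio of Il1rn to Il1b UMIs in macrophages was 2.45, 3.89 and 1.09 in vehicle and 6.54 and 4.15 in Xevinapant, without overlap. Over all leukocytes the ratio was 1.90, 2.66 and 0.584 in vehicle and 1.24 and 1.46 in Xevinapant, which overlapped. In neutrophils it was 1.78, 0.313 and 0.171 in vehicle, the last 2 from 7 and 9 cells, and 0.793 and 0.907 in Xevinapant. Il10 was at 5.48, 4.13 and 2.54 CPM in vehicle and 9.06 and 5.80 CPM in Xevinapant, the Xevinapant samples above all others by a small margin (edgeR log2 fold change 0.92 ± 0.49 SE, adjusted p = 0.460). Of the 6 members tested in macrophages edgeR called 0, against 0.161% of all genes, and 2 (Il1a and Il1b) had an unadjusted p under 0.05, as did 13.2% of all genes. DESeq2 gave an adjusted p for Il1rn alone (0.857) and none for the other members, Il1a and Il1b included. With each matrix as 1 mouse edgeR called Il1a, and 1.55% of all genes. The samples were non-overlapping and lower for 2 of 6, against 16% of all genes, and higher for 1 of 6, against 13.4%. Tumor markers in the same cells summed to 728, 765 and 900 CPM in vehicle and 328 and 598 CPM in Xevinapant. Macrophage markers summed to 4986, 3733 and 3276 CPM in vehicle and 9516 and 5519 CPM in Xevinapant, monocyte markers to 484, 226 and 430 CPM against 921 and 542 CPM, neutrophil markers to 163, 130 and 137 CPM against 228 and 195 CPM, and fibroblast markers to 36.7, 41.3 and 66.8 CPM against 150 and 365 CPM. The part of these markers in the values was not tested.

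**Figure D3:**
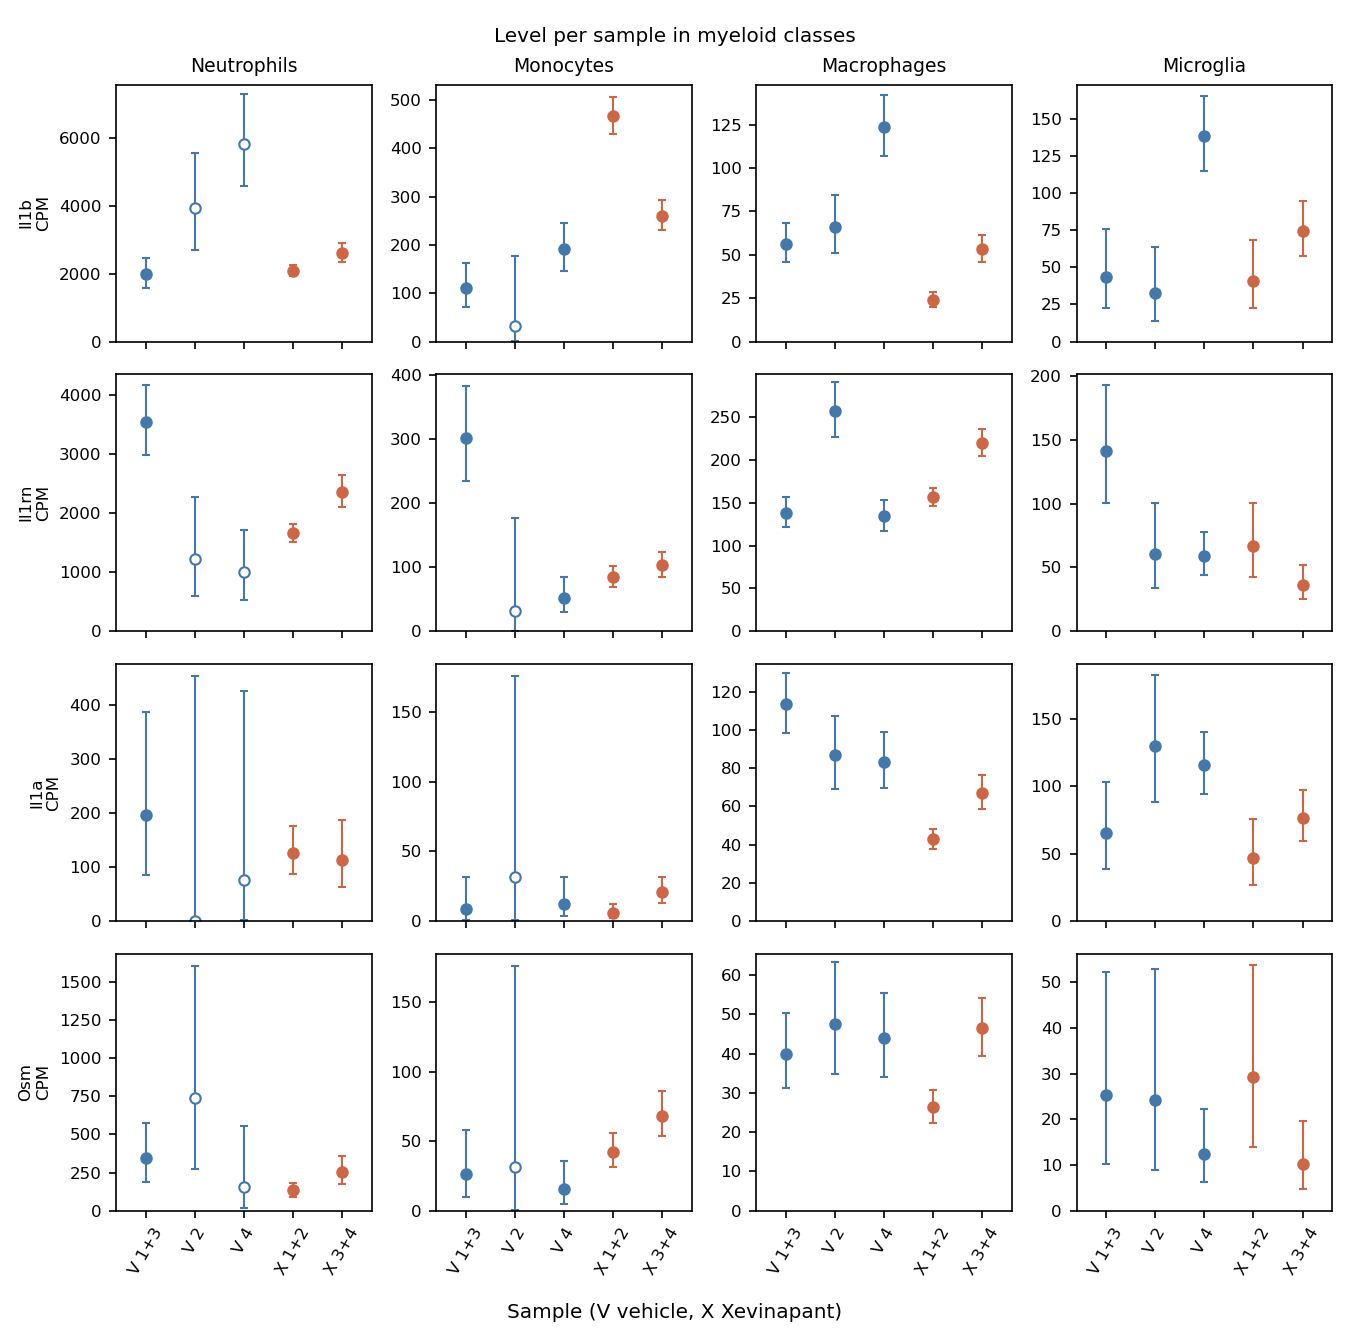
Level in CPM (vertical axis) of the IL-1 genes and Osm in neutrophils, monocytes, macrophages and microglia-gated cells, with 1 point for each sample (horizontal axis, V vehicle and X Xevinapant), open where a sample had under 10 cells, and bars for the 95% Poisson interval of the count. Il1b in monocytes is at 466 and 260 CPM in Xevinapant and 111 and 191 CPM in the vehicle samples with at least 10 cells, while Il1a in macrophages is lower in both Xevinapant samples than in any vehicle sample.

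Neutrophils had at least 10 cells in only 1 vehicle sample, so the joined samples could not be tested with that minimum. With each matrix as 1 mouse (2 vehicle and 4 Xevinapant matrices with at least 10 neutrophils), the edgeR log2 fold change of Il1b was 0.39 ± 0.34 (SE, adjusted p = 0.717). With a minimum of 3 cells, chosen after seeing the data, Il1b was at 1988, 3933 and 5824 CPM in vehicle and 2089 and 2601 CPM in Xevinapant. The groups overlapped, and the 2 highest values came from 7 and 9 cells. The edgeR log2 fold change was then -0.71 ± 0.46 (SE) with an adjusted p of 0.753, opposite in sign to that over matrices. In microglia-gated cells Il1a was at 65.2, 130 and 116 CPM in vehicle and 46.8 and 76.6 CPM in Xevinapant, which overlapped. There edgeR called 0 of 4 members, as it did 0% of all genes, with Il1a alone at an unadjusted p under 0.05, against 4.67% of all genes, and 0 called by DESeq2.

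Over all leukocytes together, Il1a was at 92.2, 94.9 and 82.3 CPM in vehicle and 40.7 and 58.9 CPM in Xevinapant, without overlap. The edgeR log2 fold change was -0.82 ± 0.16 (SE), with an adjusted p of 0.191. Of the 7 members tested there edgeR called 0, against 0.0693% of all genes, 2 (Il1a and Il10) had an unadjusted p under 0.05, as did 13.4% of all genes. Il1a was called by DESeq2 (adjusted p = 0.0286), as were 0.798% of the genes it gave an adjusted p. It was also called by edgeR with each matrix as 1 mouse (-0.84 ± 0.15 SE, adjusted p = 0.0223), as were 2.75% of all genes. Every Xevinapant sample was lower for 1 of 7 (Il1a), a share close to the 15.7% of all genes, and higher for 2 of 7 (Il10 and Il6ra), against 14.6%. The mix of leukocyte classes differed between the samples, as given above.

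Receptor-bearing stromal cells were compared next. Fibroblast Il1r1 was at 78.6, 60.1 and 101 CPM in vehicle and 211 and 98.2 CPM in Xevinapant, where the lower Xevinapant value fell below the highest vehicle value. Fibroblast Osmr was at 103, 130 and 87.0 CPM in vehicle and 207 and 134 CPM in Xevinapant, which did not overlap, though the lower Xevinapant value lay close to the highest vehicle value. By edgeR the log2 fold changes were 1.09 ± 0.34 (SE, adjusted p = 0.214) and 0.85 ± 0.28 (SE, adjusted p = 0.224). For Il1r1 the value was 0.38 without Xevinapant 1 and 2, and for Osmr 0.46.

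Fibroblast Lif was at 17.2, 48.1 and 66.9 CPM in vehicle and 48.1 and 54.7 CPM in Xevinapant, within the vehicle range. Fibroblast Il6 was at 0, 2.0 and 4.14 CPM in vehicle and 16.8 and 5.61 CPM in Xevinapant, too few UMIs for the test's filter. Of the 4 members tested in fibroblasts edgeR called 0, against 0% of all genes, 2 (Il1r1 and Osmr) had an unadjusted p under 0.05, as did 15.4% of all genes, and DESeq2 called 0. Every Xevinapant sample was higher for 1 of 4, against 9.53% of all genes. Summed tumor markers in fibroblasts were 2011, 2001 and 3495 CPM in vehicle and 699 and 963 CPM in Xevinapant. In tumor cells the same markers summed to 6279 to 8168 CPM. Fibroblast markers in fibroblasts summed to 128003, 124289 and 94465 CPM in vehicle and 147497 and 155237 CPM in Xevinapant. Neither of the 2 sums in fibroblasts overlapped between the groups, and their part in these values was not tested.

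Endothelial Il1r1 was at 10.0, 8.86 and 18.7 CPM in vehicle and 57.2 and 27.6 CPM in Xevinapant, without overlap. The edgeR log2 fold change was 1.68 ± 0.48 (SE), with an adjusted p of 0.190. Endothelial Osmr was at 32.5, 39.9 and 54.2 CPM in vehicle and 65.7 and 29.9 CPM in Xevinapant, the 2 Xevinapant samples enclosing all vehicle samples. Of these 2 members edgeR called 0, against 0.0667% of all genes, and 1 (Il1r1) had an unadjusted p under 0.05, as did 12.9% of all genes, while DESeq2 gave neither an adjusted p. Every Xevinapant sample was higher for 1 of 2, against 13.8% of all genes. Tumor markers in endothelial cells summed to 1897, 1526 and 1584 CPM in vehicle and 630 and 1056 CPM in Xevinapant, and their part was not tested. In pericytes edgeR called 0 of 2 (0% of all genes), none had an unadjusted p under 0.05 and DESeq2 called 0.

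Most Lif UMIs were in tumor cells, where Lif was at 5.43, 2.15 and 4.51 CPM in vehicle and 8.87 and 14.3 CPM in Xevinapant, both above all vehicle samples. The edgeR log2 fold change was 1.47 ± 0.41 (SE), with an adjusted p of 0.396. Lif UMIs were found in 4.76%, 2.38% and 5.22% of vehicle tumor cells and in 5.92% and 10.6% of Xevinapant tumor cells.

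Free RNA from other cells can give a tumor cell UMIs of a gene it does not express, so each level was set against that of the source class. The class markers used beside the members also served in the gates, and cells rich in another class's markers were not called tumor cells. The gates thus kept the marker shares in tumor cells low. For this reason the comparison cannot tell expression by tumor cells from free RNA. Lif in tumor cells was at 4.47% to 31.7% of its fibroblast level, Il1r1 at 1.43% to 3.15% and Osmr at 0.580% to 2.41%, while the fibroblast markers there were at 0.0404% to 0.195% of theirs. Il6ra was at 9.33% to 17.9% of its macrophage level, against 0.281% to 0.524% for macrophage markers. Il1b was at 0.445% to 3.29% of its macrophage level, above those markers in every sample. This order depended on the source class. In the Xevinapant samples tumor cells held 0.787 and 1.13 CPM of Il1b against 466 and 260 CPM in monocytes. Monocyte markers were at 61.5 and 36.9 CPM against 7040 and 7124 CPM. Set against monocytes, Il1b and Osm lay below the monocyte markers in both Xevinapant samples and in vehicle 1 and 3, but above them in vehicle 4. Against macrophages, in both Xevinapant samples Il1a (0.741% and 0.554%), Il1rn (0.968% and 0.590%) and Osm (0.947% and 0.426%) were above the same sample's macrophage markers (0.524% and 0.305%). In vehicle Osm was below the macrophage markers in all 3 samples, and Il1a and Il1rn were above them in some samples only. Against neutrophils, in the 3 samples with at least 10 of them, Il1b was at 0.0238% to 0.0436%, Il1rn at 0.0195% to 0.0916% and Osm at 0.0234% to 0.187%, with neutrophil markers at 0.00493% to 0.0144%. Fibroblast markers in tumor cells summed to 100, 50.3 and 65.5 CPM in vehicle and 287 and 106 CPM in Xevinapant, and neutrophil markers to 2.27, 1.65 and 2.08 CPM and to 7.44 and 6.60 CPM. Macrophage markers there summed to 14.8, 10.5 and 12.9 CPM in vehicle and 49.9 and 16.8 CPM in Xevinapant. Monocyte markers summed to 34.8, 14.5 and 18.9 CPM in vehicle and 61.5 and 36.9 CPM in Xevinapant. All 4 sums were higher in both Xevinapant samples than in any vehicle sample.

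In tumor cells 6 of the 9 members tested had every Xevinapant sample higher (Il1r1, Il1rn, Il6, Lif, Osm and Osmr), against 19.7% of all genes. By edgeR 0 of 9 were called (0% of all genes), and 3 (Il1rn, Lif and Osm) had an unadjusted p under 0.05, against 11.5% of all genes. Lif was called by DESeq2, as were 2.0% of the genes it gave an adjusted p, and by edgeR with each matrix as 1 mouse, as were 5.39%. Osmr was at 2.25, 0.755 and 1.73 CPM in vehicle and 3.27 and 3.23 CPM in Xevinapant. Il1rn was at 0.691, 0.903 and 0.489 CPM in vehicle and 1.52 and 1.30 CPM in Xevinapant. The fibroblast, neutrophil, macrophage and monocyte marker sums given above were higher in the same samples, and their part in these values was not tested.

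**Figure D4:**
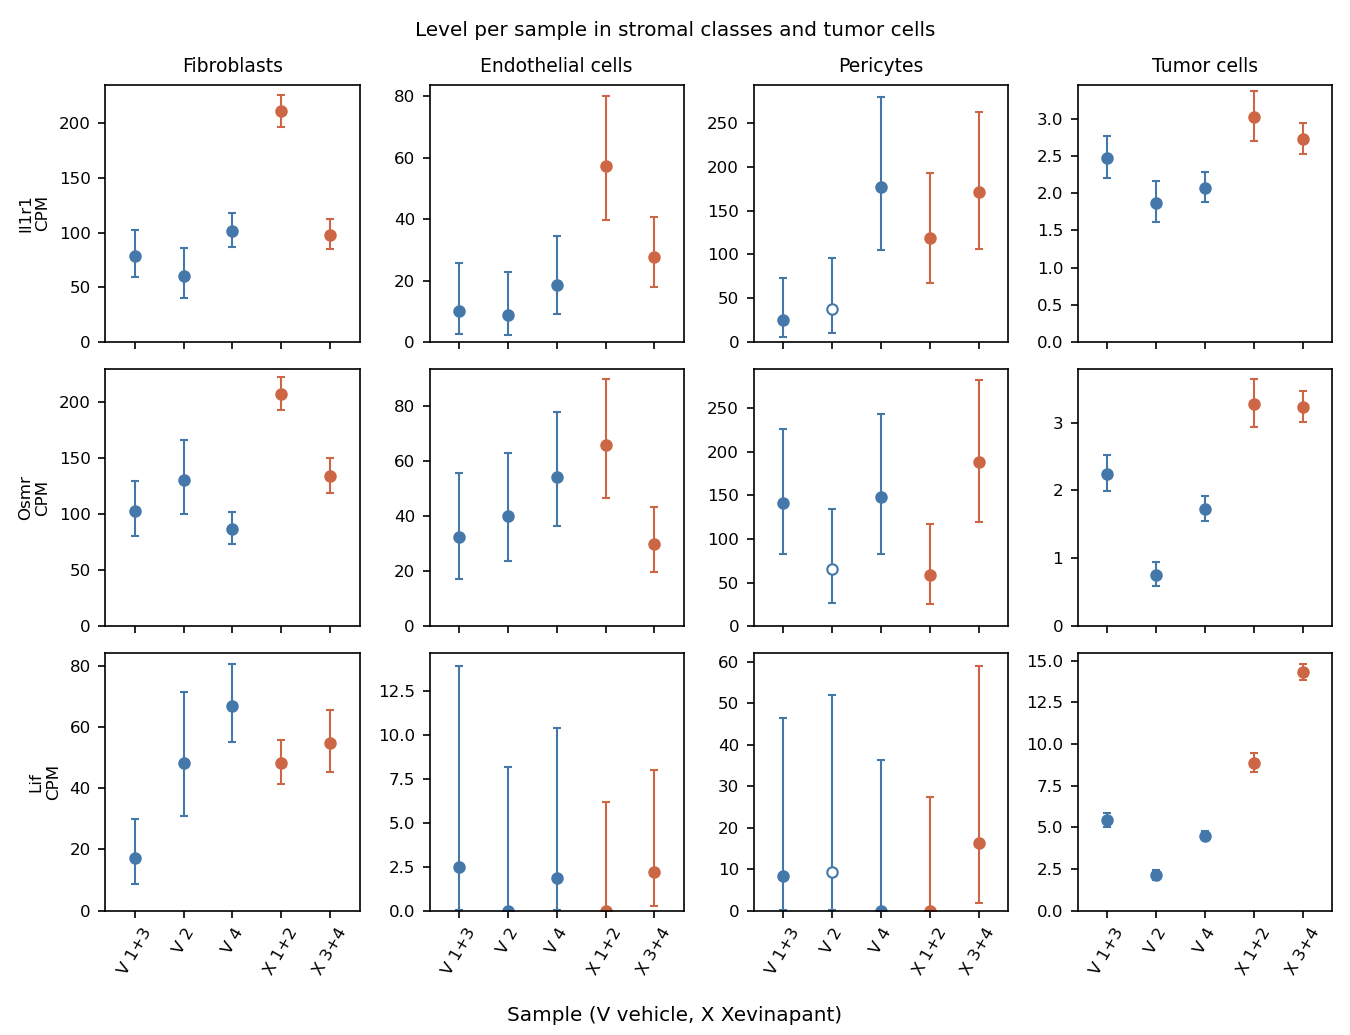
Level in CPM (vertical axis) of the receptor genes and Lif in the stromal and tumor classes, with 1 point for each sample (horizontal axis, V vehicle and X Xevinapant), open where a sample had under 10 cells, and bars for the 95% Poisson interval of the count. Lif in tumor cells is at 8.87 and 14.3 CPM in Xevinapant and at most 5.43 CPM in vehicle, and endothelial Il1r1 at 57.2 and 27.6 CPM against at most 18.7 CPM.

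Other genes of these pathways were tested in the same fits, from lists of IL-1 pathway, IL-6 family pathway, IL-10 pathway and inflammatory and acute-phase target genes that left out the members. The lists were chosen with earlier results of these data known, so their medians are a description and no independent support. Of the 19 target genes measured, 17 were tested in monocytes and 18 in macrophages. Their median log2 fold change was 1.04 and 0.56, against -0.01 over all genes in both classes. In each class edgeR called 1, against 0.216% of all genes in monocytes and 0.161% in macrophages. The median was 0.87 in fibroblasts (14 tested), 0.79 in endothelial cells (11), 0.77 in tumor cells (19), 1.63 in pericytes (5), 0.02 in microglia-gated cells (12) and -0.98 in T cells (2), and edgeR called none in these classes. In monocytes edgeR called Cxcl2, a neutrophil-attracting chemokine, which was at 0 and 6.16 CPM in vehicle and 411 and 169 CPM in Xevinapant. Its 2 vehicle values rest on 0 and 2 UMIs, and the edgeR adjusted p was 0.0128. In macrophages edgeR called Mt2, a metallothionein, which rose from 269, 279 and 301 CPM in vehicle to 730 and 558 CPM in Xevinapant (log2 fold change 1.23 ± 0.18 SE, adjusted p = 0.0450). Of the 21 IL-1 pathway genes measured, 16 were tested in monocytes and 16 in macrophages, and edgeR called none there. Of the 19 IL-6 family pathway genes, 13 and 14 were tested, and of the 9 IL-10 pathway genes 2 and 2, again with none called by edgeR or DESeq2. In fibroblasts, endothelial cells and tumor cells edgeR called no gene of the 4 lists, while DESeq2 called 3 in fibroblasts (Il33, Cebpb and Mt2, with 2.03% of the genes it gave an adjusted p), 1 in endothelial cells (Lrg1, with 1.93%) and 5 in tumor cells (Socs3, Cebpb, Cebpd, Ptgs2 and Timp1, with 2.0%). In monocytes DESeq2 called 2 target genes (Cebpb and Cxcl2), with 2.80% of genes, and in macrophages 3 (Cebpb, Mt2 and Nfkbia), with 3.85%. Il1r2 in monocytes was at 17.7 and 9.25 CPM in vehicle and 58.4 and 51.3 CPM in Xevinapant (edgeR log2 fold change 2.18 ± 0.46 SE, adjusted p = 0.0940).

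**Figure D5:**
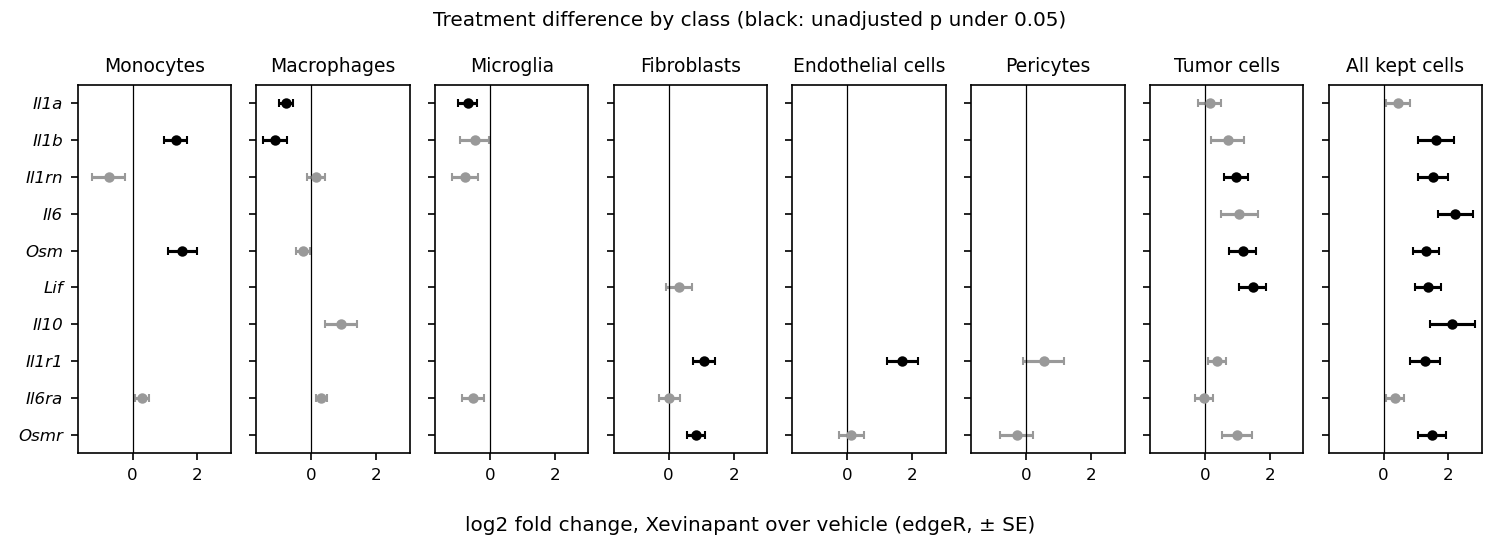
Log2 fold change of each member, Xevinapant over vehicle, by edgeR with its standard error (horizontal axis) in each class (panels), with genes in rows and black marking an unadjusted p under 0.05. No member passed an adjusted p of 0.05, and Il1b lies at 1.33 in monocytes and -1.11 in macrophages.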

How the data were processed

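Fixed tumor cells of both treatments were profiled with a probe-based 10x Genomics assay. The authors deposited UMI counts per gene and barcode for 8 matrices, on the mm10 build, from Cell Ranger (7.1.0 in the matrix headers and 3.0 in the labels). The labels also name Seurat 4.0. Barcodes with under 200 genes, over 10% mitochondrial UMIs or complexity under 0.8 were left out, as in the study. Scrublet scores then removed 0.8% of barcodes per 1000 barcodes, a higher rate than the one the labels give (3905 removed). The Xevinapant matrices, although named Vehicle, were placed by their sample label.

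Leukocytes were gated on at least 2 of 5 leukocyte genes and 3 class markers, stromal cells on 5 markers and tumor cells on 4. A leukocyte also needed more UMIs of leukocyte genes than of tumor markers, and a stromal cell more of its class markers than of tumor markers. Tumor cells passed no other gate and held more UMIs of tumor markers than of the leukocyte genes or of any stromal marker list. Counts were summed per class and sample with at least 10 cells and tested with edgeR 4.0.16 (quasi-likelihood, TMM, Benjamini-Hochberg adjustment over all genes passing its filter). DESeq2 1.42.0, other gates and filters, leaving out samples, and each matrix as 1 mouse were alternatives. Shares of cells were compared by exact two-sided permutation. The test was also run on simulated counts, whose outcome is not given here, so no error rate for these samples is claimed. Intervals and CPM cover counting error only where no spread is given. The edgeR and DESeq2 p-values set a difference against the variation between these samples, estimated with information from all genes. With each matrix as 1 mouse, that variation includes the pairs with near-identical cell makeup. The 10 members and the pathway lists were chosen with earlier results of these data known. Genes named beside members were the partner receptors, the pathway genes passing the test and the genes most like each member over 12 classes.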

Additional observations from a re-analysis of the deposited data

Results flagged for a closer look

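One result stood out as a difference between cell classes. The treatment effect on Il1b was larger in monocytes than in macrophages by 2.47 on the log2 scale, as an interaction term in edgeR over both classes, a comparison chosen after seeing the data. The fit took 9 sums of class and sample, drawn from 5 samples, and had no term for the sample. It thus treated the monocytes and macrophages of 1 sample as independent. In this edgeR fit the Il1b term had an unadjusted p of 0.00192 and an adjusted p of 0.611, and 0 of 10533 genes were called. Leaving out each sample in turn gave 1.51 to 3.44. The same term for Osm was 1.82, with an adjusted p of 0.755 in edgeR. The macrophage markers in monocytes differed between the groups, as given above, and their part was not tested.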

How the results depend on the processing

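Over 41 member and class results, 579 alternatives that gave a test value gave the same direction and side of the threshold in 527, passed it in 27 and turned the direction in 25. The cause of each change was not tested.

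The labels pair no samples. Joining matrices put different numbers together in the 2 groups, so the joined samples could not be blocked by number. The matrices are numbered 1 to 4 in both groups, and same-numbered matrices of the groups shared 178 to 528 full barcodes against 0 in other pairs. Their deviations from the group means correlated at -0.20 to 0.22 in tumor cells and -0.25 to 0.22 in all kept cells, so not every pair deviated together and the numbers were not taken to pair mice. Matrices with different numbers shared 36 to 1603 droplet barcodes but 0 full barcodes, within a group as well. The sharing of full barcodes thus followed the number and is no separate sign of pairing. With that number as a replicate block (each matrix as 1 mouse, chosen after seeing the data), edgeR called 2 members in macrophages (Il1a and Il1b), 1 in fibroblasts (Osmr), 1 in all leukocytes (Il1a, adjusted p = 0.0244) and 0 in monocytes, microglia-gated cells, endothelial cells, tumor cells and all kept cells. The block fit called 1.53% of all genes in macrophages, 4.49% in fibroblasts and 1.65% in all leukocytes. Over all genes the block took the calls in all kept cells from 784 higher and 732 lower to 0 (29.0% of genes with an unadjusted p under 0.05), and in tumor cells from 308 and 455 to 24 and 6.

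Members past the threshold numbered 0 in every class in edgeR. Without the low-count filter there were 2 in monocytes, 2 in macrophages, 1 in endothelial cells and 1 in fibroblasts, where 2.43%, 3.58%, 3.06% and 3.37% of all genes were called. DESeq2 gave 1 in monocytes, 1 in tumor cells and 5 in all kept cells. With each matrix as 1 mouse there were 1 in macrophages, 1 in tumor cells and 4 in all kept cells. In all leukocytes DESeq2 called Il1a (adjusted p = 0.0286), as did edgeR with each matrix as 1 mouse (adjusted p = 0.0223). DESeq2 gave no adjusted p for either endothelial member or for all macrophage members but Il1rn. Leaving out each sample gave 0 to 2 in monocytes (Il1b and Il1rn without vehicle 4, Il1b without Xevinapant 3 and 4, with 0.995% and 3.24% of all genes called) and 0 to 2 in all kept cells (Il1r1 and Il6 without Xevinapant 3 and 4, with 3.56% of all genes).

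With each matrix as 1 mouse, the share of monocytes differed by 1.18 percentage points (exact permutation p = 0.0286) and that of tumor cells by -11.7 (exact permutation p = 0.0286). Over the joined samples the tumor cell share differed by -12.3 (exact permutation p = 0.2, the smallest possible value). The difference for microglia-gated cells was 0.00423 with 2 markers more, and -0.196 to 0.0955 when samples were left out.

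When samples were left out, log2 fold changes spanned 0 for Il1rn in monocytes (-1.56 to 0.91, positive without vehicle 1 and 3), Il1rn in macrophages (-0.0409 to 0.49), Osm in macrophages (-0.62 to 0.0806), Il1b in microglia-gated cells (-0.997 to 0.68), Osmr in endothelial cells (-0.49 to 0.64), Il6ra in fibroblasts (-0.15 to 0.16), Lif in fibroblasts (-0.0393 to 0.82), Il1r1 in pericytes (-0.30 to 2.38), Osmr in pericytes (-1.32 to 0.36), Il6ra in tumor cells (-0.16 to 0.18) and Il1a in all kept cells (-0.0293 to 0.75). With mixed droplets left out, Il1rn and Osm in macrophages were -0.30 and 0.15, and Il1rn and Il1b in microglia-gated cells 0.10 and 0.11. With 2 markers more, Il1rn in macrophages was -0.0519 and Il6ra in fibroblasts -0.31, and with 1 marker fewer Il6ra in fibroblasts was -0.0636. Without TMM, Il6ra was -0.14 in fibroblasts and 0.0251 in tumor cells. With no doublets removed, Il1r1 in pericytes was -0.0803 and Il1a in tumor cells -0.00119.

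Over all genes, edgeR called 12 higher and 7 lower in monocytes against 54 and 11 by DESeq2, and 16 and 1 in macrophages against 37 and 18. In fibroblasts, tumor cells and all kept cells edgeR called 0, against 95 and 114, 144 and 147, and 516 and 283 by DESeq2. With each matrix as 1 mouse, edgeR called 138 and 167, 308 and 455, and 784 and 732. Where a group is left with 1 sample, that sample is assumed to vary like the others. Few neutrophils, and few UMIs of Il6 and Il10, limit what could be tested.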

Other observations

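Leukocytes that met no class gate were 355 cells in vehicle and 527 in Xevinapant. In these cells the decoy receptor gene Il1r2 was at 78.8, 12.3 and 39.1 CPM in the vehicle samples and 309 and 43.8 CPM in the Xevinapant samples, which overlapped.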
